A study of Mus musculus with 6 samples.

Results

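Adenosine outside the cell is made, sensed and removed by a small set of proteins, and 8 of their genes, out of 55401 listed in the count table, are described here: Nt5e, Entpd1, Adora2a, Adora2b, Adora3, Ada, Adk and Slc29a1. They were picked by gene symbol, each matched 1 row of the table, and all 8 passed the filter on low counts. RNA was sequenced from F4/80+ cells, a surface marker used to isolate macrophages, taken from liver tumours of mice 14 days after injection of Hepa 1-6 cells, a mouse hepatoma line, into the right liver lobe. There were 3 control libraries, whose genotype label is WT Control, and 3 Sms_OE libraries (genotype label Sms-OE), from tumours of cells given extra Sms, which encodes spermine synthase, by lentivirus. Neither group had another treatment, and the sources used here do not give the mice's strain, sex or age. The titles number the libraries as replicates but tie none of them to a mouse, so the p-values reflect only how these libraries varied, which may be technical.

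In the known pathway, ATP released by stressed cells is cut to ADP and AMP by CD39, the product of Entpd1, and AMP is cut to adenosine by CD73, the product of Nt5e. Adenosine acts on G protein-coupled receptors, of which those encoded by Adora2a and Adora2b raise cyclic AMP and that of Adora3 lowers it, and in macrophages signalling by the first pair is known to restrain inflammatory cytokines. The signal ends when the nucleoside transporter ENT1 (Slc29a1) carries adenosine across the membrane and adenosine kinase (Adk) turns it back into AMP, or adenosine deaminase (Ada) turns it into inosine.

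Library totals were 49833764 to 58154006 estimated counts, and levels are given as CPM, counts scaled to a common library size. All 10 macrophage markers were detected in every library, and their summed level was 6550 to 6707 CPM in control libraries and 6199 to 7321 CPM in Sms_OE. Single markers went both ways: Itgam rose 1.52-fold, and Cd68, C1qa, C1qb and C1qc fell 1.28-fold, 1.37-fold, 1.58-fold and 1.42-fold. The sort also held RNA of other cells. Neutrophil markers summed to 3311 to 6128 CPM in control libraries and 2242 to 4129 CPM in Sms_OE, and T cell markers to 293 to 459 and 341 to 544 CPM. Haemoglobin RNA took 0.485% and 0.512% of the counts of Sms_OE replicates 2 and 3, against 0.0225% or less in the other libraries, and the calls of genes named here that were lost without this pair are given. Mitochondrial RNA also separated the groups, with 4.99% to 7.13% of counts in the controls and 2.15% to 3.12% in Sms_OE. A fit without the mitochondrial and haemoglobin rows kept the calls of Nt5e, Slc29a1 and Adk, and of the called list genes named below only Sp1 lost its call. That fit removes these rows only, and the part of mitochondrial content in the results was not tested further. In such bulk samples, fewer cells of a type and less RNA per cell cannot be told apart. Sms itself was 26.0 to 28.3 CPM in control libraries and 32.9 to 33.2 CPM in Sms_OE.

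Among the 8 genes, Nt5e, which makes adenosine, rose 3.00-fold in Sms_OE. Slc29a1 and Adk, which take adenosine up and phosphorylate it, fell 1.62-fold and 1.46-fold, although the Adk call was lost without any of 5 of the 6 libraries. Entpd1, the 3 receptors and Ada did not pass the test. So 3 of the 8 genes were called, 1 higher and 2 lower, where 26.9% of the 18277 genes tested were called, 12.5% higher and 14.3% lower. With 8 genes this count (37.5%) does not set the group apart from other genes. The median log2 fold change of the 8 genes was -0.04, beside -0.00060 over all genes tested. In 3 of the 8 genes the groups did not overlap, which held for 44.1% of all genes tested.

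**Figure D1:**
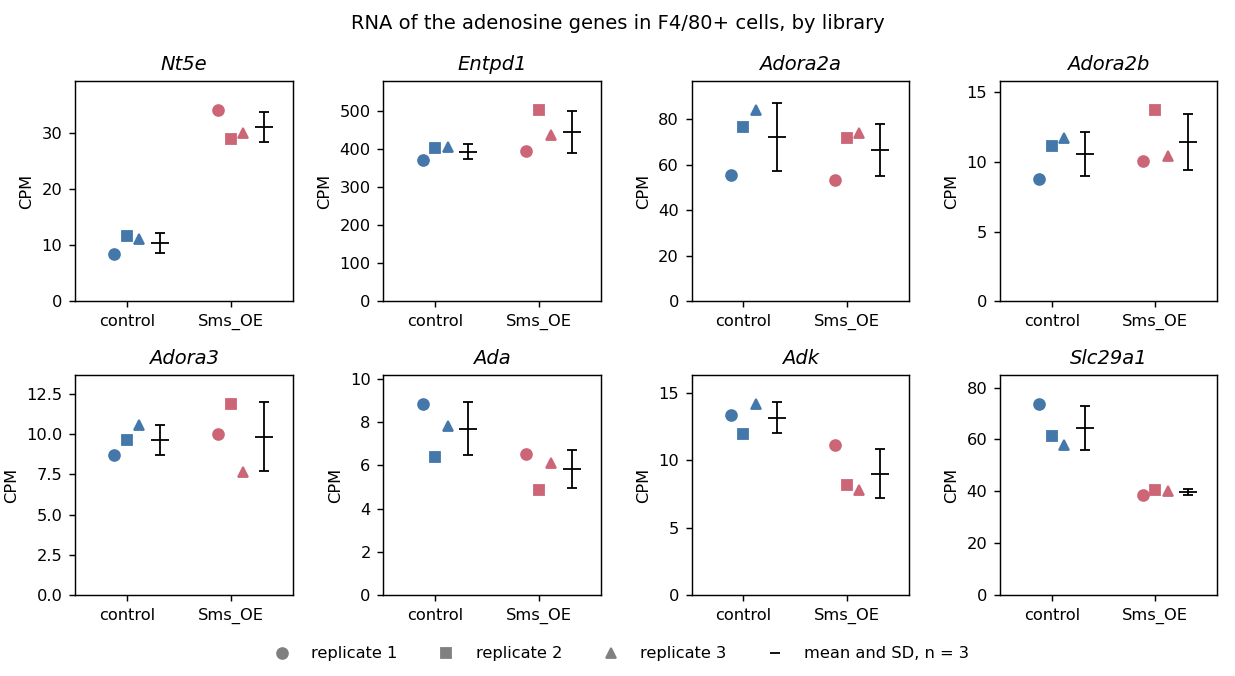
RNA level (vertical axis, CPM from library sizes scaled by TMM) of the 8 genes in each of the 3 control (blue) and 3 Sms_OE (red) libraries. Symbols mark the replicate number, and black bars give the mean and SD. Nt5e at 28.9 to 34.1 CPM in Sms_OE lay above all controls, Slc29a1 and Adk lay below all controls, and the other 5 genes overlapped.

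Per kilobase of the longest annotated transcript, the levels covered a wide range. Entpd1 was highest, at 93.3 ± 4.7 CPM per kilobase in the controls (SD, n = 3), above 95.8% of 18253 genes with a transcript length. Slc29a1 and Adora2a came next at 29.0 ± 3.8 and 27.8 ± 5.7, and their order differed between control libraries. Adora2b, Ada and Adora3 followed at 5.71 ± 0.86, 4.56 ± 0.73 and 4.06 ± 0.40, each overlapping the next. Adk and Nt5e were lowest, at 3.11 ± 0.27 and 2.59 ± 0.43, with overlapping ranges. In Sms_OE the order differed. Nt5e moved from the 8th to the 4th level, at 7.77 ± 0.68, overlapping only Adora2b below it, and Slc29a1 at 17.9 ± 0.46 lay below Adora2a at 25.6 ± 4.4 in all 3 libraries. Adora3 at 4.15 ± 0.90 had a higher mean than Ada at 3.46 ± 0.52, with overlapping ranges. These ranks depend on the transcript taken as the gene's length. With the length of all annotated exons together, Adora2a stood above Slc29a1 in the controls too, and Nt5e in Sms_OE ranked the 5th, at 3.61 ± 0.32 against 6.18 ± 1.1 for Adora2b.

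**Figure D2:**
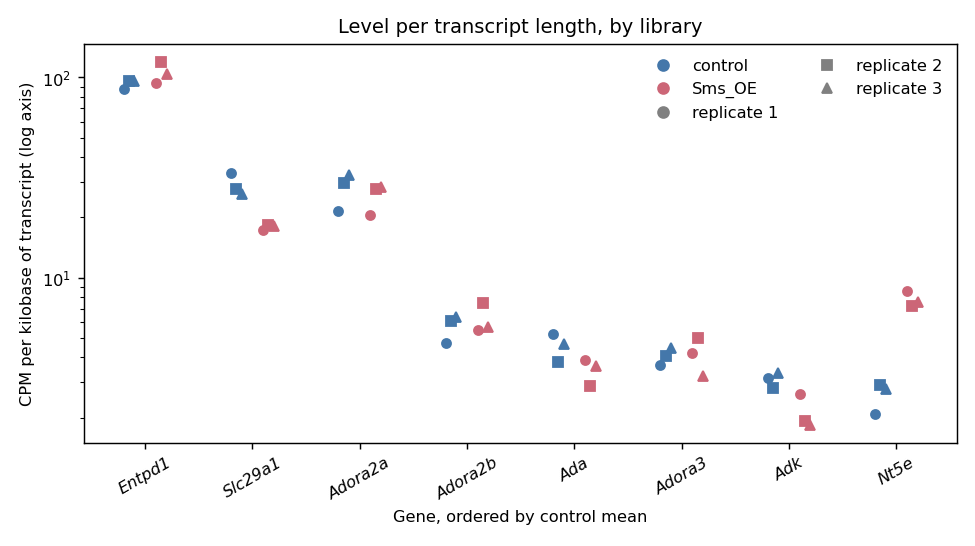
Level per kilobase of the longest transcript (vertical log axis, CPM per kilobase) of each gene in the 3 control (blue) and 3 Sms_OE (red) libraries, ordered by control mean. Entpd1 at 93.3 CPM per kilobase was the highest gene in the controls, and Nt5e rose from 2.59 to 7.77.

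Nt5e encodes CD73, a membrane-anchored 5'-nucleotidase and the main enzyme that makes adenosine from AMP outside cells. The gene (ENSMUSG00000032420) lies on chromosome 9, 88327197 to 88372092, plus strand, in GRCm38. Its level was 8.36, 11.6 and 11.1 CPM in control replicates 1, 2 and 3 and 34.1, 28.9 and 30.1 CPM in Sms_OE replicates 1, 2 and 3. Every Sms_OE library was above every control library, and the lowest of them was well above the highest control. The log2 fold change was 1.59 ± 0.15 (SE), with a 95% interval of 1.26 to 1.91 and an adjusted p of 0.000187 (edgeR, quasi-likelihood). By p it was the 61st gene of the 18277 tested. Leaving out any 1 library gave log2 fold changes of 1.45 to 1.66, and without both haemoglobin-rich libraries it was 1.72 (adjusted p = 0.00604).

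Several marker lists held genes called higher in Sms_OE, as Nt5e was, and only some of these lists had higher sums without overlap. The erythroid sum, given below with Slc29a1, was also higher without overlap, but 0 of its 5 tested markers were called. It was 216 CPM in Sms_OE replicate 1, near the highest control at 188 CPM, and 5040 and 5003 CPM in Sms_OE replicates 2 and 3. All 7 Kupffer cell markers, which mark the resident macrophages of the liver, rose, and their sum was 143 to 160 CPM in control libraries and 343 to 464 CPM in Sms_OE. Of 7 stellate cell and fibroblast markers, 6 of them tested, 2 rose, Col1a2 and Dcn, the latter a matrix proteoglycan, and the list summed to 77.1 to 95.7 CPM in control libraries and 108 to 149 CPM in Sms_OE. Lrat, a defining marker of stellate cells, had 4 to 20 counts in the controls and was at 0 in all Sms_OE libraries. Of 10 T cell markers 1 rose, Cd4, and the summed ranges of the groups overlapped. Platelet markers summed to 24.6 to 33.5 CPM in the controls and 44.6 to 66.1 CPM in Sms_OE, with 1 of 4 called, Pf4, which rose 3.46-fold. Of 8 neutrophil markers Mpo and Elane, enzymes of granules, rose 3.20-fold and 2.85-fold, while the summed ranges overlapped. The rest of that list had negative log2 fold changes, from -0.74 (S100a9) to -0.34 (Retnlg), and none of those passed. For S100a8 and S100a9, every Sms_OE library lay below every control, which held for 23.3% of all genes tested. For S100a8 the gap was small, with the highest Sms_OE library at 698 CPM and the lowest control at 701 CPM. The part of these lists in the Nt5e result was not tested.

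Ratios of counts within a library do not depend on the scaling between libraries, and serve to compare the groups, not the levels of the genes. Nt5e relative to Adgre1, the gene of F4/80 itself, was 0.0251, 0.0245 and 0.0206 in the controls and 0.0656, 0.0439 and 0.0569 in Sms_OE. Relative to Clec4f, a lectin of Kupffer cells, it was 0.335, 0.493 and 0.425 in the controls and 0.600, 0.227 and 0.350 in Sms_OE. Nt5e relative to the F4/80 gene was thus higher in every Sms_OE library than in any control, while against Clec4f the groups overlapped. Of the 7 Kupffer cell markers Clec4f rose the most, 3.62-fold, and Folr2 the least, 1.97-fold. The overlap is given for Clec4f alone, since no ratio to another of these markers was taken.

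Entpd1 encodes CD39, which feeds CD73 with AMP and is abundant on macrophages. The gene (ENSMUSG00000048120; chromosome 19, 40612366 to 40741602, plus strand) stood at 371, 404 and 406 CPM in control libraries and 395, 504 and 438 CPM in Sms_OE. Sms_OE replicate 1 fell within the control range, so the groups overlapped. The log2 fold change of 0.18 ± 0.11 did not pass (adjusted p = 0.257 by edgeR), and its 95% interval of -0.06 to 0.42 corresponds to 0.959 to 1.34 times the control level. A rise of the size seen for Nt5e lies outside that interval. As a result, Nt5e counts were 0.0225, 0.0287 and 0.0273 of Entpd1 counts in the controls and 0.0864, 0.0575 and 0.0686 in Sms_OE, without overlap. Entpd1 holds a processed pseudogene, Gm8783, within its span but outside its exons, with 440 to 623 counts a library against 19520 to 25098 for Entpd1.

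**Figure D3:**
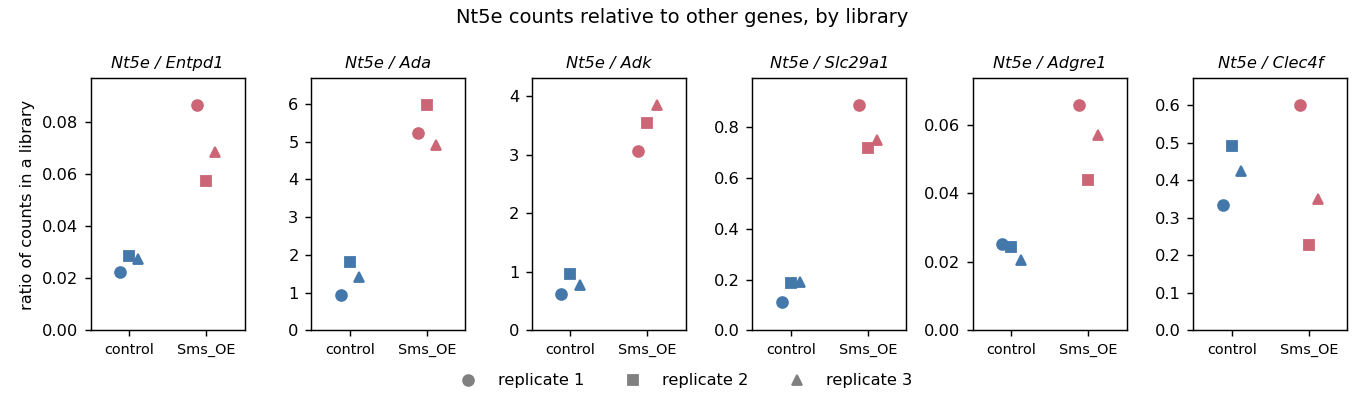
Ratio of Nt5e counts to the counts of 6 other genes in the same library (vertical axes, from 0), for 3 control (blue) and 3 Sms_OE (red) libraries with symbols for the replicate number. The ratio to Entpd1, Ada, Adk, Slc29a1 and Adgre1 was higher in every Sms_OE library than in any control, and the ratio to the Kupffer cell gene Clec4f overlapped.

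None of the 3 receptor genes passed the test. Adora2a, the high-affinity receptor that raises cyclic AMP (ENSMUSG00000020178; chromosome 10, 75316877 to 75334784), stood at 55.6, 76.8 and 84.2 CPM in control libraries and 53.5, 72.0 and 74.0 CPM in Sms_OE. Replicate 1 was the lowest library of each group, and the spread within a group was wider than the difference of the means. The log2 fold change was -0.12 ± 0.17, with a 95% interval of -0.49 to 0.25. Counts of Entpd1 relative to Adora2a overlapped between the groups.

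Adora2b, the lower-affinity A2B receptor (ENSMUSG00000018500; chromosome 11, 62248984 to 62266453), stood at 8.74, 11.1 and 11.7 CPM in control libraries and 10.1, 13.7 and 10.4 CPM in Sms_OE. The groups overlapped, and the log2 fold change of 0.11 ± 0.17 (95% interval -0.27 to 0.50) turned slightly negative without control replicate 1 or Sms_OE replicate 2 (-0.01 and -0.05) and without both haemoglobin-rich libraries (-0.07). Adora3, the A3 receptor (ENSMUSG00000000562; chromosome 3, 105870858 to 105908926), stood at 8.68, 9.63 and 10.6 CPM in control libraries and 9.99, 11.9 and 7.63 CPM in Sms_OE. Here the Sms_OE libraries held both the highest and the lowest value. Its log2 fold change was 0.03 ± 0.18 (95% interval -0.38 to 0.44), with a negative sign without control replicate 1 (-0.04) or Sms_OE replicate 2 (-0.14). Adora3 shares 779 exon bases with Tmigd3 on the same strand, listed at 237 to 457 counts, so the split of reads between them is uncertain. Adjusted p were 0.646, 0.678 and 0.921 for Adora2a, Adora2b and Adora3 by edgeR, and the intervals allow changes of at most 1.42 times upward and to 0.713 times downward.

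The ratio between the receptor genes also overlapped between groups. Adora2a counts were 6.36, 6.89 and 7.19 times those of Adora2b in the controls and 5.31, 5.25 and 7.10 times in Sms_OE. The remaining adenosine receptor gene, Adora1, which was not among the 8 genes and is named here after its values were seen, was at 0.541 to 0.968 CPM in control libraries and 0.463 to 2.67 CPM in Sms_OE and did not pass (log2 fold change 1.27 ± 0.56, adjusted p = 0.126).

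Slc29a1 encodes ENT1, the equilibrative transporter that moves adenosine across the plasma membrane along its gradient. The gene (ENSMUSG00000023942; chromosome 17, 45585200 to 45599606, minus strand) stood at 73.8, 61.5 and 57.8 CPM in control libraries and 38.5, 40.4 and 40.2 CPM in Sms_OE. The Sms_OE libraries lay close together and all below the lowest control. The log2 fold change was -0.70 ± 0.10, with a 95% interval of -0.93 to -0.46 and an adjusted p of 0.00154 by edgeR. It was -0.78 to -0.59 without any 1 library and -0.75 without both haemoglobin-rich libraries (adjusted p = 0.0367). An antisense gene, Gm17080, overlaps 275 exon bases and held 5 to 23 counts, against 2013 to 4424 for Slc29a1.

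ENT1 is known in endothelial cells and red cell precursors as well as in macrophages. Of 8 endothelial markers 4 fell (Kdr, Stab2, Clec4g and Tek) and 1 rose (Cdh5), and the list summed to 148 to 167 CPM in control libraries and 120 to 162 CPM in Sms_OE, with overlap. Erythroid markers summed to 43.2 to 188 CPM in control libraries and 216 to 5040 CPM in Sms_OE, with 0 of 5 tested markers called. In 3 other lists every Sms_OE sum lay below every control sum. They were 720 to 897 CPM in the controls and 385 to 589 CPM in Sms_OE for hepatocyte markers (9 of 10 called lower), 72.0 to 88.1 and 49.3 to 69.8 CPM for hepatoma markers (2 of 4 tested, Gpc3 and Rhox5), and 70.0 to 86.2 and 49.2 to 57.2 CPM for dendritic cell markers (3 of 7 lower and 1 higher). The part of these cells in the fall of Slc29a1 was not tested.

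Adk encodes adenosine kinase, which returns adenosine to AMP inside the cell and is abundant in hepatocytes. The gene (ENSMUSG00000039197; chromosome 14, 21052574 to 21448569, plus strand) stood at 13.4, 11.9 and 14.2 CPM in control libraries and 11.1, 8.15 and 7.82 CPM in Sms_OE. The highest Sms_OE library, replicate 1, lay just below the lowest control. The log2 fold change was -0.55 ± 0.17, with a 95% interval of -0.92 to -0.17 and an adjusted p of 0.037 by edgeR. It no longer passed without control replicate 1 (adjusted p = 0.0901), control replicate 2 (0.0623), control replicate 3 (0.108), Sms_OE replicate 2 (0.0917) or Sms_OE replicate 3 (0.12), and with library size alone as the scaling (0.0868). Without both haemoglobin-rich libraries the log2 fold change was -0.25 (adjusted p = 0.465). The hepatocyte markers given above moved the same way. With their mean level as a covariate, which itself followed the groups closely, the log2 fold change of Adk was 0.38 ± 0.56 (SE), and no gene of the 18277 passed in that fit.

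Ada encodes adenosine deaminase, which turns adenosine into inosine in the cell and at its surface. The gene (ENSMUSG00000017697; chromosome 2, 163726584 to 163750239, minus strand) stood at 8.86, 6.41 and 7.83 CPM in control libraries and 6.54, 4.86 and 6.12 CPM in Sms_OE. Sms_OE replicate 1 lay above control replicate 2, so the groups overlapped. Its log2 fold change of -0.40 ± 0.19 (95% interval -0.83 to 0.03) did not pass (adjusted p = 0.161 by edgeR), and the sign was negative under each of the 18 alternatives run. The ratio of Ada to Adk counts, 0.537 to 0.662 in the controls and 0.589 to 0.783 in Sms_OE, overlapped.

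Set against the genes that remove adenosine, Nt5e was higher in Sms_OE in each library. Its counts were 0.625, 0.970 and 0.780 times those of Adk in the controls and 3.07, 3.55 and 3.84 times in Sms_OE. They were 0.944, 1.81 and 1.42 times those of Ada in the controls and 5.22, 5.96 and 4.91 times in Sms_OE. Relative to Slc29a1 they were 0.113, 0.188 and 0.192 in the controls and 0.886, 0.716 and 0.748 in Sms_OE. All 3 ratios were free of overlap, with ratios of group means of 4.41, 3.86 and 4.76. They restate the differences given above for the single genes and are not a separate result. These are ratios of RNA counts, not of enzyme activity, and adenosine itself was not measured in these data.

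**Figure D4:**
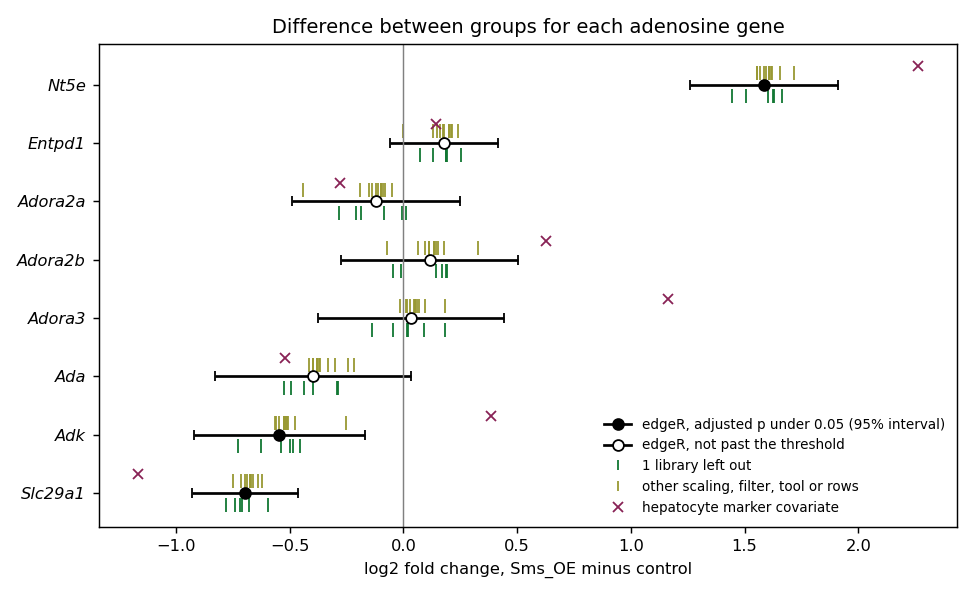
Log2 fold change of Sms_OE minus control (horizontal axis) for each gene, with edgeR's 95% interval (filled points passed an adjusted p of 0.05). Green marks leave out 1 library, olive marks use other scalings, filters, tools or rows, and crosses add the hepatocyte marker covariate. Nt5e stayed between 1.45 and 1.72 under all but the covariate (2.26), and Adk changed sign under the covariate.

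Low oxygen and cyclic AMP are known to act on several of these genes, through the factor HIF-1 on the core letters ACGTG or GCGTG and through CREB on TGACG or the full element TGACGTCA. The 250 bases before each RefSeq start (GRCm38.p6) were searched on both strands for these letters. The table held 16 such windows for 7 of the 8 genes. A hypoxia core stood in 8 of the 16 windows, where 38.6% of all 32851 windows hold one. These windows belonged to 5 of the 7 genes. No share per gene was computed, and genes differ in their number of windows, with 8 for Slc29a1. TGACG stood in 4 windows, of Entpd1, Adk and Slc29a1 (17.8% of all windows), and TGACGTCA in none of the 16 (1.55% of all windows). The letters TGACGTG would count as both TGACG and ACGTG. A match is a description of the sequence and not a bound site. The matches of the 3 genes that passed the test are shown, with 1 window each, 5′ to 3′ on the strand of the gene and the hypoxia core in capitals. For Adk and Slc29a1 the window shown holds a hypoxia core and no annotated exon. For Nt5e only the core with 10 bases on each side is shown, since its window lies within the first exon of the longer GENCODE transcript, which starts 412 bases before the RefSeq start.
Nt5e, chr9:88327461-88327485: cctgcgggctGCGTGtgctgggcca
Adk, chr14:21075902-21076151: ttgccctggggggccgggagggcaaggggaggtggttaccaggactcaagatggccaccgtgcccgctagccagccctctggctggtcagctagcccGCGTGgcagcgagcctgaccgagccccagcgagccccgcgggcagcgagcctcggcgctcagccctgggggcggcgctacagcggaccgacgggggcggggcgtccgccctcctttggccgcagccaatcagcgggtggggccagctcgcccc
Slc29a1, chr17:45597152-45597401: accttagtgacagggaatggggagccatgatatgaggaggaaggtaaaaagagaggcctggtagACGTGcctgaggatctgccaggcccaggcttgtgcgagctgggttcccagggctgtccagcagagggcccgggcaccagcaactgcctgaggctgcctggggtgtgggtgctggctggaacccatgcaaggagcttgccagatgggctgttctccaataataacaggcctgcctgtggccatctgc
The factor genes themselves were on a list of 7 known regulators, all tested, of which 2 rose and 1 fell, beside 12.5% and 14.3% of all genes tested. Stat3 rose 1.48-fold (287 ± 17 to 424 ± 18 CPM, adjusted p = 0.00203 by edgeR). Hif1a, the oxygen-regulated subunit of HIF-1, fell 1.29-fold at the RNA level (445 ± 24 to 345 ± 10 CPM, SD, n = 3, adjusted p = 0.0127 by edgeR), a call lost without control replicate 2 and without both haemoglobin-rich libraries (adjusted p = 0.0842). Sp1 rose 1.20-fold with an adjusted p of 0.0481, and it did not pass in any of the 6 fits that left out 1 library or in that without both haemoglobin-rich libraries, with a log2 fold change of -0.02 under offsets for length and GC. The number of higher factors was 1 without control replicate 1, 2 or 3 or Sms_OE replicate 3.

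Other enzymes act on nucleotides or, as Dpp4 does, on peptides outside the cell. Of 10 listed, 8 were tested, 3 rose and 1 fell, with a median log2 fold change of 0.39. These counts and those of the next lists stand beside 12.5% of all genes tested that rose and 14.3% that fell. Cd38, an ectoenzyme that breaks down NAD, stood at 51.1, 51.5 and 48.3 CPM in control libraries and 90.7, 67.3 and 103 CPM in Sms_OE, a 1.73-fold rise without overlap (adjusted p = 0.00292 by edgeR). Entpd3, a relative of CD39, rose 1.44-fold (21.1 ± 0.72 to 30.5 ± 5.1 CPM, adjusted p = 0.0153), and Acpp, an acid phosphatase that can also cut AMP, rose 1.74-fold (38.7 ± 9.7 to 67.3 ± 21 CPM, adjusted p = 0.0477). Dpp4 (CD26), a surface peptidase, fell 1.54-fold (35.1 ± 6.4 to 22.8 ± 3.1 CPM, adjusted p = 0.0132). Without control replicate 2 or 3 only Cd38 of the higher genes passed. Entpd3 also lost its call without Sms_OE replicate 3, and Acpp without control replicate 1, Sms_OE replicate 2 or 3, both haemoglobin-rich libraries or the filter on low counts, and with offsets for length and GC. Without Sms_OE replicate 2 the lower genes numbered 2, and without both haemoglobin-rich libraries none.

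Enzymes that handle adenosine and other purines inside the cell gave 8 genes of 20 tested that fell and 1 that rose, with a median log2 fold change of -0.12. Hprt, which salvages hypoxanthine and guanine, fell 1.39-fold (105 ± 4.4 to 75.5 ± 3.8 CPM, adjusted p = 0.00273 by edgeR), a call lost with offsets for gene length and GC and without both haemoglobin-rich libraries (adjusted p = 0.0558). Pnp, which splits inosine made by Ada, fell 1.39-fold (259 ± 17 to 186 ± 9.7 CPM, adjusted p = 0.00408). Reads of Pnp could be split with its close copy Pnp2. Nt5c, a cytosolic nucleotidase, fell 1.44-fold from 36.1 ± 4.3 CPM (adjusted p = 0.00755, and 0.122 without both haemoglobin-rich libraries). The gene that rose, Ampd1, named after its values were seen, was at 0.140 ± 0.030 CPM in control libraries and 0.567 ± 0.25 CPM in Sms_OE, and its call was lost without any 1 of the 6 libraries. Leaving out 1 library gave 7 or 8 lower genes, and leaving out both haemoglobin-rich libraries gave 2.

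None of 3 other nucleoside transporters tested passed, so Slc29a1 was the transporter called among the 4 tested. The concentrative transporter Slc28a2 stood at 67.3 ± 7.8 CPM in control libraries and 71.4 ± 7.4 CPM in Sms_OE, and Slc29a3, an intracellular transporter, at 45.0 ± 6.3 and 47.5 ± 7.0 CPM. Their log2 fold changes were 0.09 ± 0.11 and 0.08 ± 0.13 (SE). At an unadjusted p under 0.05 none passed either, as was so with DESeq2 and limma-voom at the adjusted threshold.

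Among 11 tested genes of ATP release and of P2 receptors, which sense the nucleotides upstream of adenosine, 1 rose and 2 fell (median -0.09). P2ry2, a receptor for ATP and UTP, rose 1.57-fold (36.8 ± 3.6 to 57.6 ± 10 CPM, adjusted p = 0.00671 by edgeR). P2rx4, an ATP-gated channel, fell 1.26-fold (89.7 ± 0.92 to 71.2 ± 7.5 CPM), and P2ry6, a receptor for UDP, fell 1.34-fold (47.3 ± 4.6 to 35.2 ± 5.0 CPM). Their adjusted p were 0.0245 and 0.0277, and both calls were lost with library size alone. The number of lower genes was 1 without control replicate 3 or Sms_OE replicate 1 or 2, and 0 without control replicate 1 or 2 or Sms_OE replicate 3. Without both haemoglobin-rich libraries none of the list passed in either direction, and P2ry2 had an adjusted p of 0.172.

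Of 12 tested genes of a list of Adora1, G proteins and adenylyl cyclases, 3 rose and none fell (median 0.28). Adcy9, an adenylyl cyclase, rose 1.74-fold (5.06 ± 0.69 to 8.80 ± 0.22 CPM, adjusted p = 0.00788 by edgeR). Adcy4, another adenylyl cyclase, rose 1.73-fold (3.56 ± 0.35 to 6.17 ± 1.7 CPM), and Gnal, a stimulatory G protein subunit, rose 1.70-fold (2.35 ± 0.47 to 4.00 ± 0.49 CPM). The abundant Gnas and Gnai2, the stimulatory and inhibitory subunits, named after their values were seen, gave log2 fold changes of -0.03 ± 0.09 and -0.04 ± 0.09. The number of higher genes was 1 without control replicate 2 or 3, 5 without Sms_OE replicate 1 and 0 with offsets for length and GC or without both haemoglobin-rich libraries.

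Of 10 genes known to respond to adenosine receptors in macrophages, 5 rose and none fell (median 0.28). The list was chosen with earlier results of these data known, so this count is a description only. Il10, an anti-inflammatory cytokine that adenosine is known to raise, stood at 4.37, 5.03 and 6.66 CPM in control libraries and 12.4, 15.3 and 11.2 CPM in Sms_OE. All Sms_OE libraries were above all controls, with a log2 fold change of 1.28 ± 0.20 (adjusted p = 0.00177 by edgeR). The nuclear receptor genes Nr4a3, Nr4a2 and Nr4a1, immediate early genes that cyclic AMP induces, rose 2.94-fold, 1.77-fold and 1.43-fold (adjusted p = 8.87e-05, 0.00136 and 0.00322). These genes also respond to many other signals. The cytokine genes that adenosine is known to lower, Tnf and Il12b, were named after their values were seen. Their log2 fold changes were -0.29 ± 0.12 and -0.83 ± 0.31, and neither passed (adjusted p = 0.112 and 0.0688 by edgeR). In both, every Sms_OE library lay below every control, which held for 23.3% of all genes tested. Vegfa, another gene that adenosine is known to raise, named in the same way, gave -0.01 ± 0.20. Thbs1 and Timp1, also of this list and named in the same way, gave -0.21 ± 0.25 and 0.04 ± 0.28 and did not pass. Without Sms_OE replicate 1 or 2, 1 gene of the list was lower.

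**Figure D5:**
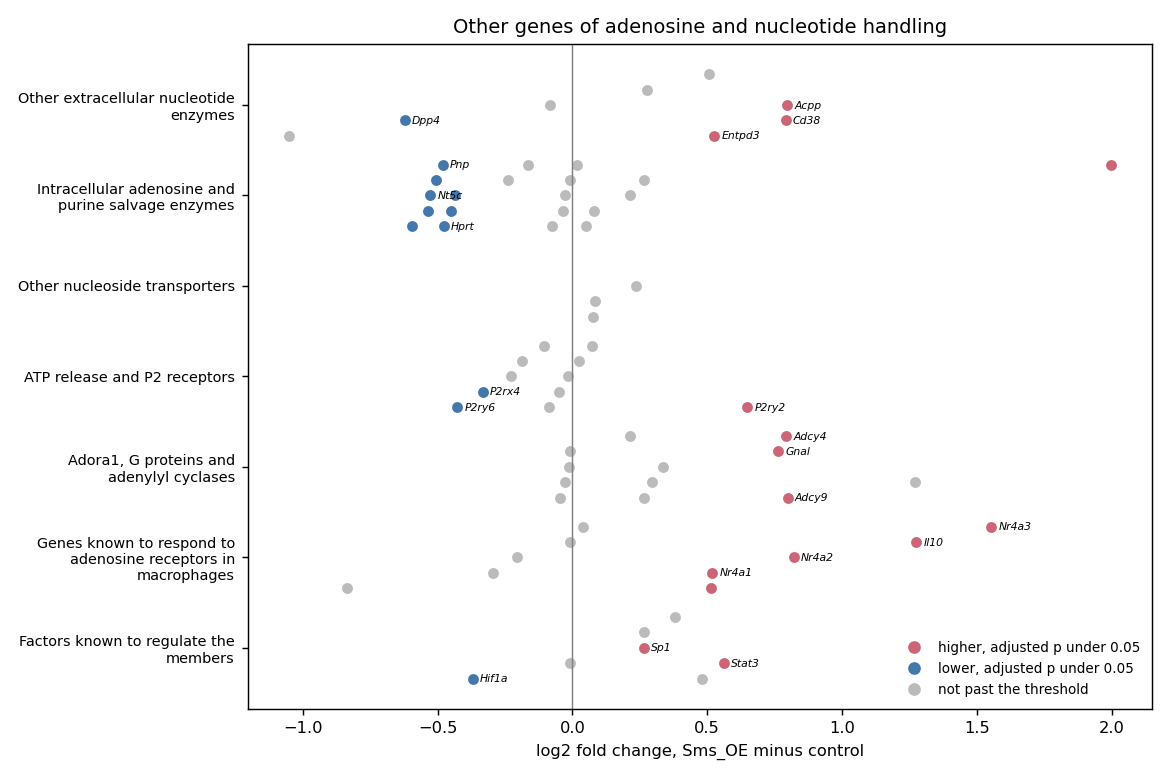
Log2 fold change of Sms_OE minus control (horizontal axis) of the 71 tested genes of 7 lists of adenosine and nucleotide handling. Red and blue points passed an adjusted p of 0.05 upward and downward, grey points did not, and names mark genes described in the text. Of the purine salvage enzymes 8 of 20 were lower, and of the receptor-responsive genes 5 of 10 were higher. The lists were chosen with earlier results of these data known. Over the 7 lists 15 genes were higher and 12 lower, where 12.5% and 14.3% of all genes tested were.

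Over all 7 lists together, 71 of 83 genes were tested, 15 rose and 12 fell, with a median log2 fold change of 0.02. These counts depend on single libraries: 8 rose without control replicate 2 and 9 without control replicate 3, and without both haemoglobin-rich libraries 7 rose and 2 fell.

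The genes whose pattern over the 6 libraries was most like that of Nt5e (Pearson r of log2 CPM, among 8004 genes of at least 10 CPM) were Zfp236, Map3k2 and Dnajb1, with r of 0.995 for each. Such an r mainly reflects the difference between the groups, and 385 genes had an r above 0.95 with Nt5e. Entpd1, the most abundant of the 8 genes, was most like Dnajb6, Smpd3 and Eif4a2, with r of 0.998, 0.997 and 0.991.

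The libraries of a group did not vary in the same way for all 8 genes. Control replicate 1 had the lowest control value of 5 genes (Nt5e, Entpd1 and the 3 receptors) and the highest of Ada and Slc29a1. Sms_OE replicate 1 had the lowest Sms_OE value of Entpd1, Adora2a, Adora2b and Slc29a1 and the highest of Nt5e, Ada and Adk. The coefficient of variation within a group was lowest for Slc29a1 in Sms_OE, at 2.58%, and highest for Adora3 in Sms_OE, at 21.7%.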

How the data were processed

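Per the labels' protocols, RNA of F4/80+ cells was selected on oligo(dT) beads and libraries were made with dUTP and UDG, which marks the strand. The read trimmer cutadapt 1.9, the aligner HISAT2 2.2.1, the assembler StringTie 2.1.6, FastQC 0.11.9 and DESeq2 are named per the submitters' processing notes. Build, annotation and strand setting: not given in the sources used here. Values deposited by the authors are estimated counts, whole as they stand and not normalized (the value 4 was more frequent than 2, 3 or 5: 1008 against 741, 580 and 352 genes in control replicate 1, so counting error is uncertain). Symbols, coordinates and lengths are those of GENCODE M21 (GRCm38), matched by identifier for 55141 of 55401 rows.

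Groups came from sample titles and columns from sample descriptions. No pair of libraries held the same values in more than 3.65% of genes detected in either. The test was edgeR 4.0.16 in R 4.3.3 (filterByExpr, TMM, robust quasi-likelihood test, Benjamini-Hochberg over 18277 genes, threshold 0.05), with fitted log2 fold changes at a prior count of 0.125 and standard errors from the F statistic, and was tested on simulated data. Summed markers are TMM-scaled CPM. All 8 genes are described, and each list is shown by at most 4 called genes, taken in order of p, or by its 2 most abundant genes where none was called. The values of 1 gene that this choice would name are not reported here. The genes and lists were chosen with earlier results of these data known. Alternatives were other scalings, filters, DESeq2 1.42.0, limma 3.58.1 voom, a replicate block, a hepatocyte covariate, length and GC offsets and each library left out. Added after seeing the data were removal of mitochondrial and haemoglobin rows and of both haemoglobin-rich libraries, which leaves 1 Sms_OE library that is assumed to vary like the controls.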

Additional observations from a re-analysis of the deposited data

How the results depend on the processing

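With 3 libraries a group, the 95% intervals of the 5 genes that did not pass span 0.562 to 1.42 times the control level. Nt5e and Slc29a1 kept their direction and their side of the threshold under 17 of 18 alternatives each, the exception being the hepatocyte covariate (log2 fold change 2.26, adjusted p = 0.569, and -1.17, adjusted p = 0.909). Ada kept both under all 18. The covariate followed the groups closely (r = -0.96 over 6 libraries), and with it 0 genes passed by edgeR, 0 higher and 0 lower (972 at an unadjusted p under 0.05), 0 of the pathway lists rose and 0 fell, Adk turned to 0.38, Nt5c to 0.0079, Slc29a3 to -0.63 and Sp1 to -0.20. The cause was not tested beyond this overlap.

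Adk was called under 10 alternatives. With library size alone it was -0.48, and without 1 library it was -0.73 to -0.46. Without both haemoglobin-rich libraries 1384 genes passed (690 higher, 694 lower), 7 list genes rose and 2 fell, Adk was -0.25, Entpd1 -0.0024 and Adora2b -0.072; fewer samples were fitted. With 1 library left out, 3050 to 4488 genes passed (1366 to 2015 higher, 1684 to 2473 lower), against 4908 (2293 and 2615) with all; the list genes numbered 8 to 16 higher and 9 to 12 lower. Among genes that did not pass, Adora3 turned to -0.016 with limma-voom and ranged from -0.14 to 0.18 without 1 library, Adora2b from -0.048 to 0.19 and Adora2a from -0.28 to 0.011. Slc29a3 was -0.063 and Sp1 -0.018 with length and GC offsets. Without 1 library Slc28a2 ranged from -0.014 to 0.15 and Slc29a3 from -0.028 to 0.18. With library size alone 2519 genes were higher and 1791 lower. The replicate number as a block gave 4532 genes, 2117 higher and 2415 lower, and changed no call of the 8 genes; same-numbered libraries deviated together with correlations of 0.0646, 0.0196 and -0.0075, so the numbers are not taken to pair the samples. The block ended the calls of Adcy4, Gnal and Sp1.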
